A study of Mus musculus with 48 samples.

Results

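Gene expression in 4 brain tissues of male C57BL/6 mice was compared between ZT15, in early darkness, and ZT11, the last collection of the light phase. Zeitgeber time (ZT) counts hours from lights on, and under the 12-h light and 12-h dark schedule of the study lights went off between these collections. All 8 ZT15 arrays and all 8 ZT11 arrays were taken by the time given in the sample labels, 16 of the 48 arrays of the series. The tissues were the habenula (HAB), the striatum (STR), the prefrontal cortex (PFC) and a ventral midbrain piece with the substantia nigra and the ventral tegmental area (SN/VTA). Each had 2 arrays per time, 1 for each of 2 successive 24-h cycles, which the replicate numbers mark. The mice were of 1 strain and 1 sex and carried no stated treatment or allele, their age is not given in the sources used here, and each array held RNA pooled from 3 mice. The labels do not say whether the 4 tissues of a collection came from the same mice, so arrays of different tissues may not be independent. With pools the p-values reflect the spread between pools, not between mice. In the fit over 4 tissues that spread also takes in differences between the 2 cycles and differences of the change between tissues.

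The mammalian circadian clock is a transcriptional feedback loop. The activators BMAL1 (gene Arntl) and CLOCK drive the Per and Cry genes, the REV-ERB receptors (Nr1d1, Nr1d2), Ciart and the output factor Dbp, often through E-box sequences, and the products of several of these genes repress the loop in turn. In nocturnal mice the passage to darkness also begins the active phase, with more waking, feeding and movement, a higher body temperature, and circulating corticosterone that peaks around this time.

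The labelled tissues carried their defining markers. Slc6a3, the dopamine transporter, had log2 levels from 11.39 to 11.55 on the 4 SN/VTA arrays and at most 6.39 on the other 12. Fezf2 in PFC, Drd1 in STR and Chrna3 in HAB also did not overlap with the other tissues. Values are the deposited log2 levels per gene, with array medians from 5.85 to 6.07, and replicate arrays correlated with r from 0.987 to 0.995 across genes. The HAB ZT11 pair stood apart. Its replicates were over 1 log2 unit apart for 89 genes, against 5 to 19 genes in the other 7 pairs. Its replicate 2 had a mean choroid plexus marker level of 6.94, against 8.76 to 9.11 on the other 3 HAB arrays. Its replicate 1 had a mean thalamus marker level of 9.06, against 9.87 to 9.93. Some results are therefore also given without 1 or both of these arrays, or without the tissue HAB.

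Over the 4 tissues 6 of 17274 genes passed an adjusted p of 0.05 (0.0347% of genes tested; limma with tissue as a term, Benjamini-Hochberg over all genes). Sdf2l1, Creld2 and Serpinh1, which act in the endoplasmic reticulum (ER), were higher at ZT15, and the clock repressors Ciart and Nr1d1 and the transcription factor Zbtb16 were lower. At an unadjusted p of 0.05, 842 genes were higher and 644 lower at ZT15 (8.6% of genes together). In each of the 6 called genes both ZT15 arrays lay on the same side of both ZT11 arrays in all 4 tissues, which held for 67 genes above (0.388%) and 33 genes below (0.191%) of those tested. When the spread was estimated on all 48 arrays, 27 genes passed (0.156%), 16 higher and 11 lower, among them 5 of the 6. Serpinh1 did not pass there (adjusted p = 0.127, limma). Without both HAB ZT11 arrays 21 genes passed in that fit, 16 of them shared with the 27. In the 16-array fit 4 genes passed without HAB ZT11 replicate 1 and 5 without replicate 2. When the 4 tissues of each collection were averaged first, which leaves 2 values against 2, limma called 0 genes, with 1123 at an unadjusted p under 0.05.

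**Figure D1:**
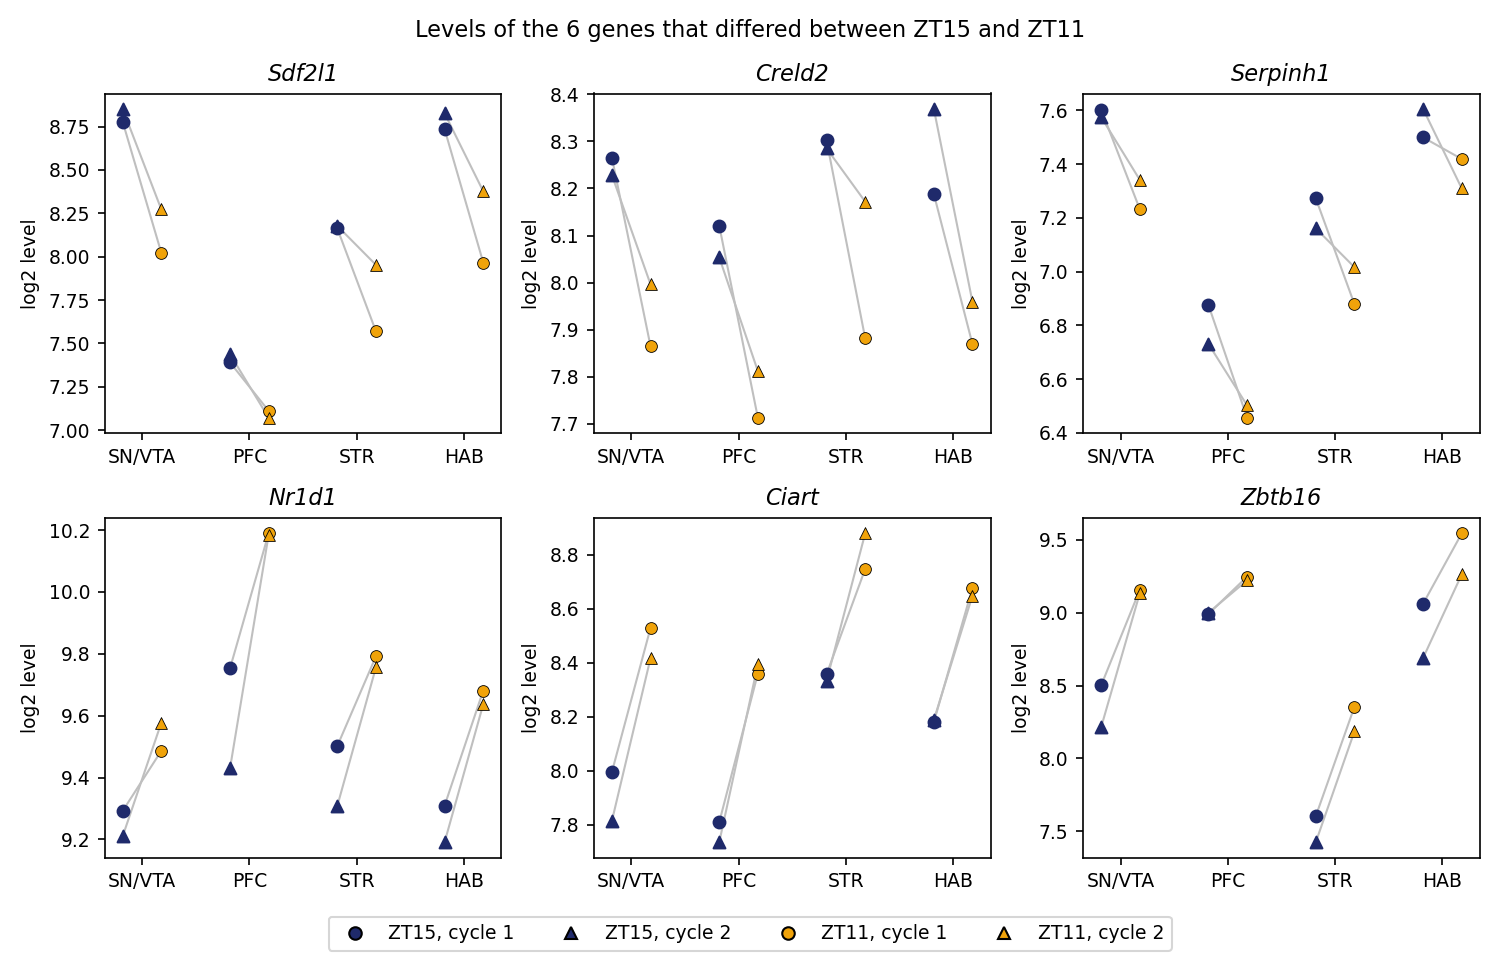
Log2 level of the 6 genes called between ZT15 and ZT11 on each of the 16 arrays, by tissue, with 1 point per array and ZT15 left of ZT11. In each tissue both ZT15 points of Sdf2l1, Creld2 and Serpinh1 lie above both ZT11 points, and those of Ciart, Nr1d1 and Zbtb16 lie below.

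Ciart, which encodes a repressor that binds the BMAL1 and CLOCK complex, fell by 0.53 ± 0.04 on the log2 scale (SE, 8 arrays per time). This is 0.693 times the ZT11 level, with a 95% interval of the log2 change from -0.62 to -0.44 and an adjusted p of 2.23e-05 (limma). In SN/VTA it had log2 levels of 8.0 and 7.81 at ZT15 (replicates 1 and 2), against 8.53 and 8.42 at ZT11. In PFC it had 7.81 and 7.74 at ZT15, against 8.36 and 8.39 at ZT11. STR had 8.36 and 8.33 at ZT15, against 8.75 and 8.88 at ZT11. HAB had 8.18 and 8.19 at ZT15, against 8.68 and 8.65 at ZT11. The ZT15 and ZT11 arrays did not overlap in any tissue, and the change was of similar size in each, from -0.60 in PFC to -0.47 in STR. Ciart passed in 30 of 33 alternative settings. The exceptions were the 2 fits on a single cycle and the fit on collection means.

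The promoter of Ciart is shown because it holds 3 copies of the E-box bound by CLOCK and BMAL1, where most promoters hold none. The window runs from 250 bases before to 50 after the transcription start (RefSeq, GRCm38.p6, chr3:95882179-95882478, minus strand, printed 5′ to 3′ along the gene), with the E-boxes CACGTG in capitals. They begin 116, 58 and 44 bases before the start. This palindromic motif occurs in 7.15% of 32851 promoter windows of the same length, and of the 5 called genes with a window only Ciart held it. Among the 24 genes called with 48 arrays that have a window, Calr, Ciart and Klf15 held it, Klf15 also in 3 copies. A match describes the sequence and shows no binding.

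Ciart promoter: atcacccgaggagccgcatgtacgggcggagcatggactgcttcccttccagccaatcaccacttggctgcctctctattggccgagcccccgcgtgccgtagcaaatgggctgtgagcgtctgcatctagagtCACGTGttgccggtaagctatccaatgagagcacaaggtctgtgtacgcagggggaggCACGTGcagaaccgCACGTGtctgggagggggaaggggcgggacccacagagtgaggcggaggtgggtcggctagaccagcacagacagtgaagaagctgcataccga

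Nr1d1 encodes REV-ERB alpha, the nuclear receptor that represses Arntl. It fell by 0.41 ± 0.06 (log2, SE; 0.751 times the ZT11 level; adjusted p = 0.0180, limma). In SN/VTA its log2 levels were 9.29 and 9.21 at ZT15, against 9.49 and 9.58 at ZT11, and in PFC 9.75 and 9.43 at ZT15, against 10.19 and 10.18 at ZT11. In STR they were 9.50 and 9.31 at ZT15, against 9.79 and 9.76 at ZT11, and in HAB 9.31 and 9.19 at ZT15, against 9.68 and 9.64 at ZT11. All 8 same-cycle changes were below 0. The PFC change of cycle 2, at -0.76, was the furthest from the others. Nr1d1 passed in 21 of 33 settings. It lost its call without any 1 of 5 arrays, replicate 2 of SN/VTA at either time, STR ZT15 replicate 2, STR ZT11 replicate 1 and HAB ZT15 replicate 2 (adjusted p from 0.0514 to 0.0621, limma), and without any 1 tissue. All 8 changes were below 0 for 0.735% of all genes tested, above 0 for 0.967% and of 1 sign for 1.7%.

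The other clock repressors were not called. The list tested held 11 genes, repressors and modifiers of their proteins such as Csnk1e and Fbxl21. Of these 2 were called, both lower, and 2 more, Bhlhe41 and Per1, were below 0 in all 8 same-cycle changes. Bhlhe41 (DEC2) had a value of -0.28 ± 0.05 (adjusted p = 0.120) and Per1 of -0.22 ± 0.05 (adjusted p = 0.232, both limma), and neither passed. Per3 had a change of -0.10, Bhlhe40 of -0.11, Nr1d2 of -0.02, Cry2 of 0.01, Fbxl21 of 0.01, Csnk1e of 0.05 and Cry1 of 0.12, all on the log2 scale. The repressors within 0.02 of 0 thus include the second REV-ERB gene, Nr1d2, and Cry2, while Cry1 had the highest value of the list. The test of Nr1d1 against Nr1d2 was not run, so a difference between the 2 receptors is given only by their values. Per2 and Csnk1d share array rows with other symbols and were not analysed here.

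The activators had values on the other side of 0. Arntl had a value of 0.25 ± 0.06 and was above 0 in all 8 same-cycle changes, which ranged from 0.02 to 0.50, with an adjusted p of 0.218 (limma). Its ZT15 arrays lay above its ZT11 arrays in all 4 tissues. Rorb stood at 0.18, Npas2, a partner of BMAL1 like CLOCK, at 0.11, Rora at 0.10 and Clock at 0.06. None of the 5 activators passed. Of the 5 genes in the output list none passed either. Dbp, a PAR bZIP factor and direct target of the loop, had -0.23 ± 0.06 with all 8 changes below 0 (adjusted p = 0.256, limma), Usp2 -0.12 and Tef -0.11, while Hlf had 0.02 and Nfil3 lay closer to 0.

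**Figure D2:**
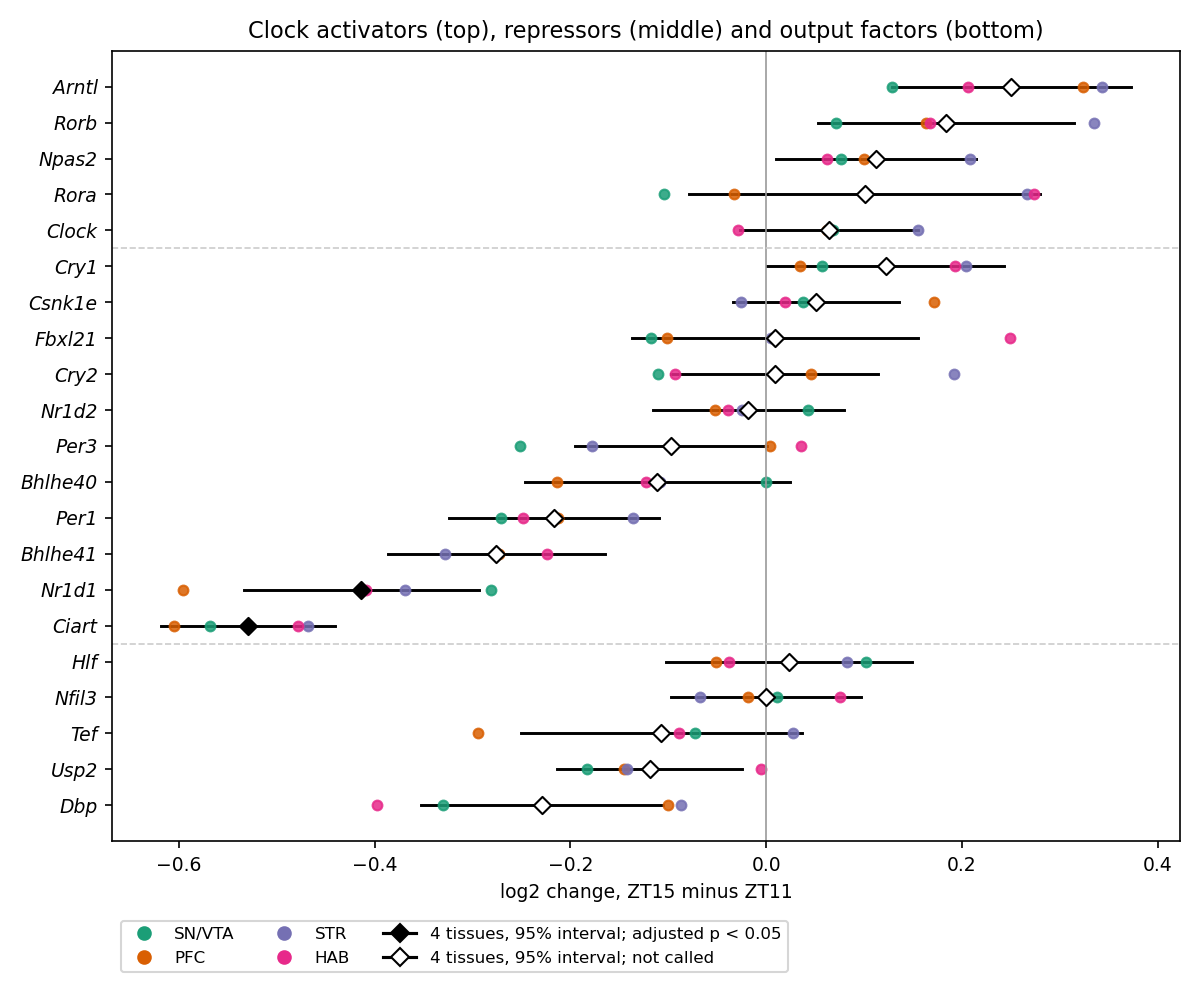
ZT15 minus ZT11 log2 change of each clock gene tested, with the estimate over 16 arrays and its 95% interval and the 4 tissue changes as points. Ciart at -0.53 and Nr1d1 at -0.41 are the called genes, Arntl stands at 0.25 and Nr1d2, Cry2 and Nfil3 lie near 0.

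Most ER chaperones and genes of the unfolded protein response had changes above 0. The unfolded protein response raises the capacity of the ER to fold and export proteins. The gene lists here were chosen with earlier results of these data known, so counts of their members are no independent finding. Of 21 members tested 20 had a change above 0, against 51.9% of all genes. The median change was 0.19 on the log2 scale, against 0.003 over all genes tested. Unadjusted p was under 0.05 for 14 members, all higher, against 4.87% of all genes higher, and 10 had all 8 same-cycle changes above 0, against 0.967% of all genes. Sdf2l1 and Creld2 passed the test over all genes, and 8 members passed with 48 arrays. The list median was 0.14 in SN/VTA, 0.15 in PFC, 0.19 in STR and 0.20 in HAB. In the 3 tissues without HAB 18 of the 21 were above 0, as were 9037 of all 17274 genes, with a list median of 0.19.

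Sdf2l1, a component of the chaperone complex of the ER lumen, rose by 0.50 ± 0.07 (log2, SE; 1.42-fold; adjusted p = 0.0204, limma). Its log2 levels in SN/VTA were 8.78 and 8.85 at ZT15, against 8.02 and 8.27 at ZT11, and in PFC 7.39 and 7.44 at ZT15, against 7.11 and 7.07 at ZT11. In STR they were 8.16 and 8.18 at ZT15, against 7.57 and 7.95 at ZT11, and in HAB 8.74 and 8.83 at ZT15, against 7.97 and 8.38 at ZT11. The replicates lay closer together at ZT15 than at ZT11 in SN/VTA, STR and HAB. The tissue changes ran from 0.32 in PFC to 0.67 in SN/VTA. Sdf2l1 passed in 19 of 33 settings. It lost its call without any 1 of 7 arrays, the 4 of SN/VTA, STR ZT15 replicate 2, STR ZT11 replicate 1 and HAB ZT15 replicate 2 (adjusted p from 0.0525 to 0.0781, limma), and without any 1 tissue.

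Creld2, an ER-resident protein induced by misfolded proteins, rose by 0.32 ± 0.05 (log2, SE; 1.25-fold; adjusted p = 0.0233, limma). Its log2 levels were 8.27 and 8.23 in SN/VTA and 8.12 and 8.05 in PFC at ZT15, against 7.86 and 8.0 in SN/VTA and 7.71 and 7.81 in PFC at ZT11. They were 8.30 and 8.29 in STR and 8.19 and 8.37 in HAB at ZT15, against 7.88 and 8.17 in STR and 7.87 and 7.96 in HAB at ZT11. The changes of the 4 tissues lay between 0.27 and 0.36. Creld2 passed in 10 of 33 settings. It lost its call without any 1 of 14 of the 16 arrays, all but HAB ZT15 replicate 1 and STR ZT11 replicate 2 (adjusted p from 0.0504 to 0.0980, limma), and without any 1 tissue.

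Serpinh1 encodes HSP47, the collagen chaperone of the ER, and was in none of the lists. It rose by 0.27 ± 0.04 (log2, SE; 1.21-fold; adjusted p = 0.0355, limma). Its log2 levels were 7.60 and 7.57 in SN/VTA and 6.88 and 6.73 in PFC at ZT15, against 7.23 and 7.34 in SN/VTA and 6.46 and 6.50 in PFC at ZT11. They were 7.27 and 7.16 in STR and 7.50 and 7.61 in HAB at ZT15, against 6.88 and 7.02 in STR and 7.42 and 7.31 in HAB at ZT11. The groups did not overlap in any tissue. Serpinh1 passed in 9 of 33 settings. The call was lost with the replicate block (adjusted p = 0.0570), without any 1 tissue, and without any 1 of 13 arrays, all but HAB ZT15 replicate 1, HAB ZT11 replicate 1 and STR ZT11 replicate 2 (adjusted p from 0.0525 to 0.146, limma).

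The other ER genes that passed with 48 arrays were named after their values were seen. They were Calr at 0.26 ± 0.04 (adjusted p = 0.000630), Pdia6 at 0.29 ± 0.05 (0.00330), Hsp90b1 at 0.26 ± 0.05 (0.0211), Hspa5 at 0.28 ± 0.06 (0.0375), Xbp1 at 0.24 ± 0.05 (0.0382) and Pdia3 at 0.26 ± 0.06 (0.0423), all as log2 change, SE and limma adjusted p. Hspa5 encodes BiP, the main Hsp70 chaperone of the ER, and Xbp1 a transcription factor of the response. Hspa5 had log2 levels of 8.90 and 9.04 in HAB at ZT15, against 8.35 and 8.48 at ZT11. In the other 3 tissues together its change was 0.19, from the 16-array fit without HAB. Members near 0 were Canx at 0.00, Ddit3 at 0.02, Dnajb9 at 0.02 and Atf4 at 0.02, and Herpud1, at -0.03, was the member below 0.

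The promoters of 3 genes of this group are shown because they hold the ER stress element, the site bound by ATF6 with NF-Y. Each is the window from 250 bases before to 50 after the start of transcription (RefSeq, GRCm38.p6), 5′ to 3′ along the gene, with the element in capitals. The windows are chr15:88819396-88819695 for Creld2, chr2:34771840-34772139 for Hspa5 and chr12:17266339-17266638 for Pdia6, all on the plus strand. The element starts 126, 65 and 98 bases before the start, and in Creld2 it lies on the opposite strand.

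Creld2 promoter: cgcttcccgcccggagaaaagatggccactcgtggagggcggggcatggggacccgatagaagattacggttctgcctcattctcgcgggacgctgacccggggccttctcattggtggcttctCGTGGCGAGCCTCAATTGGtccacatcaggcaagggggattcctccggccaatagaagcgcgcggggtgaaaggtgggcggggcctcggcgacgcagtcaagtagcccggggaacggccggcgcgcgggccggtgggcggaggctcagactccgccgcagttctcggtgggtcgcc

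Hspa5 promoter: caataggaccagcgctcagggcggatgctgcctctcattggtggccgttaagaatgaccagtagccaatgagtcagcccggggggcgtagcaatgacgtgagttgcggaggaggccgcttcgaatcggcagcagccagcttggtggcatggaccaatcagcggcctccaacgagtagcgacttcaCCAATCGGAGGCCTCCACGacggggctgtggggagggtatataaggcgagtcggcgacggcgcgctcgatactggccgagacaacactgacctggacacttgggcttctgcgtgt

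Pdia6 promoter: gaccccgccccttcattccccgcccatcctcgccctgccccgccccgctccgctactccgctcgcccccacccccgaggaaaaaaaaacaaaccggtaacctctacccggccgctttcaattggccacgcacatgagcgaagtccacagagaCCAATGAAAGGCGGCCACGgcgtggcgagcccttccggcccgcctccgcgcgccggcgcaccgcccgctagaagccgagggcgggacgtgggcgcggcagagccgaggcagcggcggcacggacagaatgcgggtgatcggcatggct

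The element, CCAAT and CCACG spaced by 9 bases and searched on both strands, occurs in 0.119% of 32851 windows. It was found in 8 of the 19 ER genes with a window, and the list was drawn up from known members of the response, so this share is no independent finding. The 8 included Canx, whose change was 0.00, and Syvn1, at 0.09, so some genes with the element had values near 0. Among the 24 genes called with 48 arrays that have a window, 5 held the element, all of them ER genes. The windows of the ER genes Sdf2l1, Xbp1 and Pdia3, also called there, did not hold it. Neither did that of Serpinh1, called with 16 arrays. A shorter form, ATTGG and CCACG spaced by 1 base, was in Dnajb11 and Herpud1 and in 0.0365% of all windows.

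**Figure D3:**
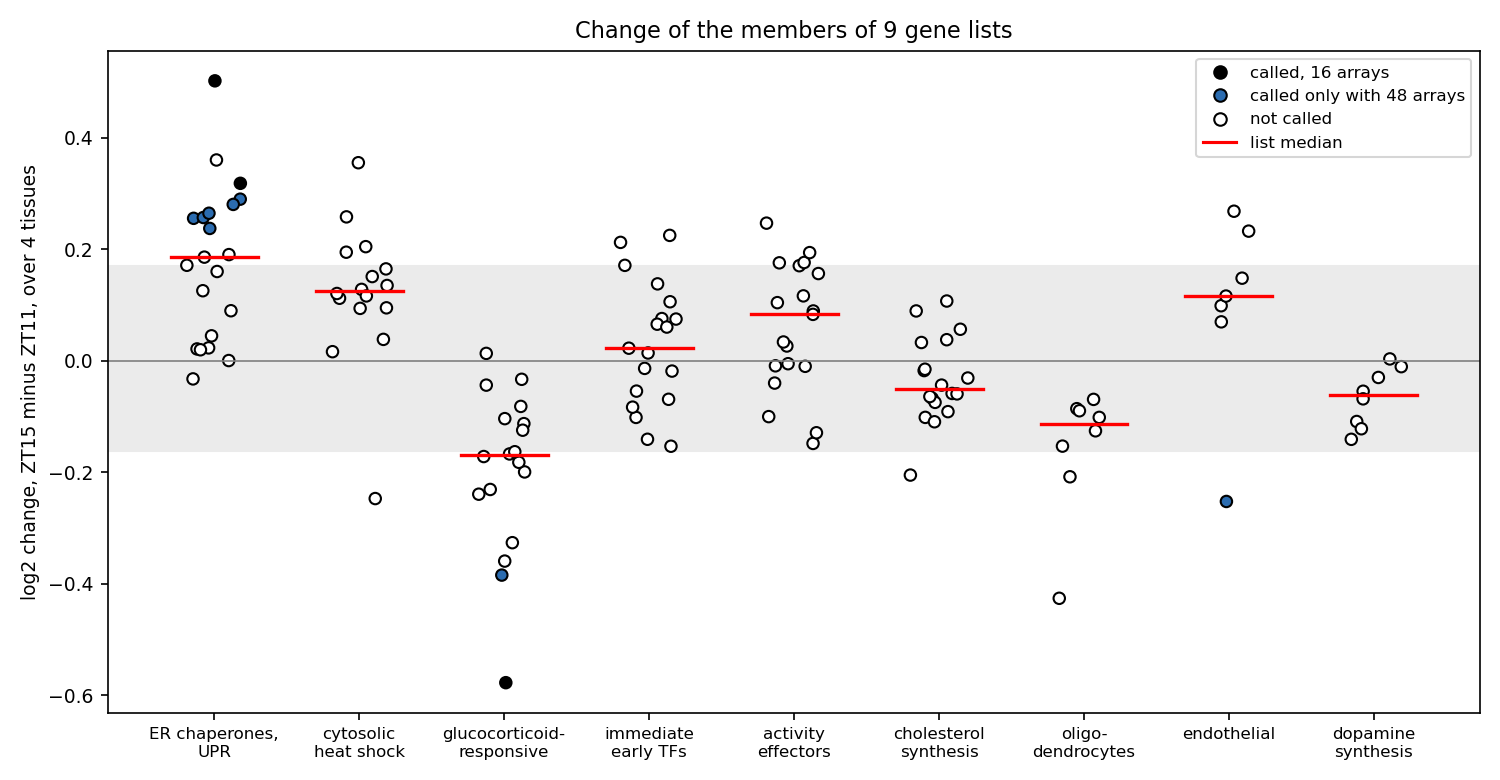
ZT15 minus ZT11 log2 change of each member of the gene lists, 1 point per gene, with the list median as a bar and the central 95% of all 17274 genes, from -0.16 to 0.17, as a grey band. The ER list has 20 of 21 points above 0 and the glucocorticoid list 17 of 18 below 0.

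Most cytosolic heat shock proteins, which keep proteins folded outside the ER, also had changes above 0. Of 16 tested 15 were above 0, against 51.9% of all genes, with a median of 0.12. Unadjusted p was under 0.05 for 12, all higher, against 4.87% of all genes higher. Without HAB 15 of 16 were again above 0, as were 9037 of all 17274 genes. In that fit 8 had an unadjusted p under 0.05, all higher, against 818 of all genes higher. None passed the adjusted test in 16 or 48 arrays. Hspb1 had a change of 0.35 ± 0.10 (adjusted p = 0.316) and Chordc1, an HSP90 co-chaperone, 0.26 ± 0.06 (adjusted p = 0.232, both limma). Hspa1a, the stress-inducible Hsp70, was the member below 0, at -0.25 ± 0.14. Cirbp, an RNA-binding protein made at lower temperature, had a change of -0.25 ± 0.05 and was below 0 in all 8 same-cycle changes (adjusted p = 0.152, limma).

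Most genes that respond to glucocorticoids had changes below 0. Of 18 tested 17 were below 0, as were 8309 of all 17274 genes, with a list median of -0.17. Unadjusted p was under 0.05 for 12, all lower, against 3.73% of all genes lower. In the 3 tissues without HAB 15 of the 18 were below 0, as were 8237 of all genes, with a list median of -0.15. Zbtb16, a zinc-finger transcription factor also known as PLZF and strongly induced by glucocorticoids, was the called member. It fell by 0.58 ± 0.08 (log2, SE; 0.670 times the ZT11 level; adjusted p = 0.0204, limma). Its log2 levels in SN/VTA were 8.50 and 8.22 at ZT15, against 9.16 and 9.13 at ZT11, and in STR 7.60 and 7.42 at ZT15, against 8.35 and 8.18 at ZT11. In HAB they were 9.06 and 8.69 at ZT15, against 9.54 and 9.26 at ZT11, and in PFC 8.99 and 9.0 at ZT15, against 9.25 and 9.22 at ZT11. The groups did not overlap in any tissue. The change was -0.24 in PFC and between -0.79 and -0.53 in the other 3 tissues, and the test of a difference between tissues did not pass (adjusted p = 0.792, limma). Zbtb16 passed in 19 of 33 settings. It lost its call without any 1 of 8 arrays, the 4 of SN/VTA, STR ZT15 replicate 2, STR ZT11 replicate 1, HAB ZT15 replicate 2 and HAB ZT11 replicate 1 (adjusted p from 0.0514 to 0.0679, limma), and without SN/VTA, STR or HAB.

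Hif3a, a hypoxia-inducible factor subunit, was lower with 48 arrays, at -0.38 ± 0.07 (adjusted p = 0.00767, limma). Plin4, a lipid droplet protein, had a change of -0.33 ± 0.09 with all 8 changes below 0 (adjusted p = 0.265), and Arrdc2 -0.24 ± 0.06 (adjusted p = 0.256). Widely used markers of this hormone did not pass, with Sgk1 at -0.36 ± 0.13, Fkbp5 at -0.23 ± 0.07 and Tsc22d3 at -0.17 ± 0.07. Klf15, a Krüppel-like factor outside the list, was lower with 48 arrays, at -0.32 ± 0.06 (adjusted p = 0.0111).

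The remaining genes called with 48 arrays, also named after their values were seen, fall outside these lists. P4ha1, the catalytic subunit of collagen prolyl 4-hydroxylase, rose by 0.26 ± 0.05 (adjusted p = 0.0272), and like Serpinh1 it acts on collagen in the ER. Tra2a, a splicing factor, rose by 0.24 ± 0.05 (0.0272) and Srpk1, a kinase of splicing factors, by 0.19 ± 0.04 (0.0438). Etv5, an ETS factor, rose by 0.28 ± 0.06 (0.0272), Itga6, a laminin receptor subunit, by 0.22 ± 0.05 (0.0382), Plekho2 by 0.22 ± 0.05 (0.0382), Zdhhc14 by 0.20 ± 0.04 (0.0382) and Zfc3h1 by 0.18 ± 0.04 (0.0382). Rbm11 was lower at -0.28 ± 0.06 (0.0479), Parn, a poly(A) nuclease, at -0.22 ± 0.05 (0.0382), Bcl2l1, which encodes BCL-XL, at -0.18 ± 0.04 (0.0453) and Sys1 at -0.18 ± 0.04 (0.0438). Slc2a1, the glucose transporter of brain endothelium, was lower at -0.25 ± 0.05 (0.015), with both ZT15 arrays below both ZT11 arrays in all 4 tissues. Values in brackets are limma adjusted p.

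Genes induced by neuronal activity showed no called change. Of 19 immediate early transcription factors 3 had an unadjusted p under 0.05, all higher, against 4.87% of all genes, with a list median of 0.02, or 0.09 without HAB. Egr3 had a change of 0.22 ± 0.10 and Fosl2 of 0.17 ± 0.07. Fos itself had -0.14 ± 0.07. The list median was 0.19 in STR and 0.09 in PFC, against -0.07 in SN/VTA and -0.10 in HAB. Of 19 effector genes 5 were higher and 2 lower at an unadjusted p of 0.05, against 4.87% of all genes higher and 3.73% lower. Without HAB 7 were higher and 0 lower by this count, and the median was 0.12, against 0.08 with HAB. Vgf, a neuropeptide precursor, was above 0 in all 8 changes at 0.17 ± 0.04 (adjusted p = 0.251, limma). Genes of cholesterol synthesis had a median of -0.05, or -0.09 without HAB, with Insig1, the sterol-sensing retention protein, at -0.21 ± 0.06 (adjusted p = 0.314). Of 8 genes of dopamine synthesis and transport 7 were below 0, as were 8309 of all 17274 genes, with a list median of -0.06. Unadjusted p was under 0.05 for 1 of the 8. Th and Ddc, the enzymes of dopamine synthesis, had -0.11 ± 0.07 and -0.14 ± 0.06 over the 4 tissues. In SN/VTA the mean levels at ZT15 and ZT11 were 10.70 and 10.91 for Th, and 8.36 and 8.64 for Ddc. The number of the 8 genes above 0 was 0 in SN/VTA, 5 in PFC, 4 in STR and 1 in HAB. Of 12 dopamine receptor and striatal genes Drd3 alone had an unadjusted p under 0.05, at 0.21 ± 0.09 over the 4 tissues. The number above 0 was 11 in STR, 6 in SN/VTA, 5 in HAB and 2 in PFC. Of all 17274 genes 9422, 8192, 8637 and 8884 were above 0 in these tissues. The list median was 0.13 in STR and -0.25 in PFC. Rgs9 had -0.15 ± 0.07 over the 4 tissues. Its mean levels at ZT15 and ZT11 were 11.35 and 11.16 in STR, against 8.32 and 8.78 in PFC. Monoamine breakdown genes included Maob at 0.21 ± 0.07 and Maoa at 0.02, and 10 potassium and HCN channel genes lay between -0.08 and 0.04.

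Markers of other cell types were not level between the times either, though of these lists Slc2a1 alone was called, with 48 arrays. In bulk tissue fewer cells of a type and less RNA per cell cannot be told apart. All 8 oligodendrocyte markers were below 0, as were 8309 of all 17274 genes, with a list median of -0.11. Unadjusted p was under 0.05 for 1 of these 8. Opalin was lowest, at -0.43 ± 0.14 (adjusted p = 0.357, limma). Without HAB all 8 were again below 0, as were 8237 of all 17274 genes, with a list median of -0.14. In that fit 4 of the 8 had an unadjusted p under 0.05, all lower, against 594 of all genes lower. The mean oligodendrocyte level was lower at ZT15 in SN/VTA (10.12 to 10.20, against 10.30 at ZT11), in PFC (8.35 to 8.38, against 8.45 to 8.84) and in STR (8.98 to 9.01, against 9.12 to 9.14). In HAB it overlapped (9.28 to 9.45, against 9.09 to 9.78). Of 7 endothelial markers 6 were above 0, against 51.9% of all genes. Kdr had 0.27 ± 0.06, Cldn5 0.23 ± 0.08 and Flt1 0.15 ± 0.05, while Slc2a1 was the member below 0.

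All 8 choroid plexus markers were above 0 over the 4 tissues, against 51.9% of all genes, with a median of 0.31. Unadjusted p was under 0.05 for 1 of them. Without HAB 7 were above 0 and 1 below, with a median of 0.13, where 9037 of all 17274 genes were above 0. Ttr, the thyroid hormone carrier made by the choroid plexus, had the highest change of all genes tested at 1.09 ± 0.36 without passing (adjusted p = 0.392, limma). Its log2 levels were 11.28 and 11.98 in SN/VTA at ZT15, against 8.74 and 10.38 at ZT11, and 13.02 and 13.14 in HAB at ZT15, against 13.10 and 10.14 at ZT11. The mean choroid plexus level was 7.22 and 7.39 in SN/VTA at ZT15, against 6.55 and 6.75 at ZT11. In HAB it was 8.76 and 9.11 at ZT15, against 9.02 and 6.94 at ZT11, and in PFC 5.72 and 5.96 at ZT15, against 5.84 and 5.99 at ZT11. In SN/VTA the ZT15 arrays lay above the ZT11 arrays, in HAB and PFC the times overlapped, and in STR the 4 arrays lay between 6.38 and 6.53. Astrocyte, microglial, ependymal, pineal, habenula and hippocampus lists had medians between -0.03 and 0, the thalamus list 0.12, or 0.04 without HAB, and the cortical glutamatergic list 0.16, or 0.17 without HAB. Of the blood list Slc4a1 alone was tested, at -0.06 ± 0.08. The part of these markers in the gene changes was not tested.

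The tissues were compared directly by a test of the tissue by time terms. No gene passed (0 of 17274; limma F test, smallest adjusted p 0.317), with 1070 genes at an unadjusted p under 0.05 (6.19%). The sign was the same in all 4 tissue means for 2816 genes (16.3%), 8.83% of genes higher and 7.47% lower. Within single tissues, 2 arrays against 2, limma called 0 genes in SN/VTA, PFC and HAB, with 576 (3.33%), 1068 (6.18%) and 982 (5.68%) at an unadjusted p under 0.05. In STR 3 genes passed (0.0174%), with 1879 (10.9%) at an unadjusted p under 0.05. That a gene passed in STR alone does not show that its change differed from that of the other tissues.

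The striatal calls named by the rule were Neurod6 and Cck. Neurod6, a transcription factor of cortical glutamatergic neurons, had log2 levels of 5.78 and 5.37 in STR at ZT15, against 4.41 and 4.41 at ZT11, a change of 1.16 ± 0.15. Both STR ZT11 levels lay below 5.05, the mean level over arrays required for testing. In PFC and HAB the ZT11 means of Neurod6 were 8.75 and 8.58. Cck, the cholecystokinin precursor, had 9.11 and 8.69 in STR at ZT15, against 7.94 and 7.96 at ZT11, a change of 0.95 ± 0.13. Both had an adjusted p of 0.0428 (limma), and no gene passed in STR with the replicate block. The mean level of 8 cortical glutamatergic markers, Neurod6 among them, was 7.69 and 7.34 in STR at ZT15, against 7.11 and 7.01 at ZT11. All 8 were higher in STR, as were 9422 of all 17274 genes. The part of cortical RNA in these 2 calls was not tested. Neurod6 in HAB had -0.16 and Cck -0.04.

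The genes with the smallest p for a difference between tissues are given as values, since none passed. Homer1, a postsynaptic scaffold gene with an activity-induced short form, had 9.52 and 9.26 in PFC at ZT15, against 8.60 and 8.80 at ZT11, and 8.36 and 8.35 in STR at ZT15, against 8.03 and 7.98 at ZT11. In SN/VTA its change was -0.10 and in HAB -0.16 (adjusted p = 0.418 for the difference, limma). Tlr2, a receptor of innate immunity, had changes of 0.25, 0.19, -0.56 and 0.11 in SN/VTA, PFC, STR and HAB, and the chemokine Ccl3 0.45, 0.40, -0.54 and -0.06. Vit had 0.54 in STR and -0.41 in PFC, Rpl5 0.65 in PFC and -0.44 in HAB, Bdh2 0.63 in PFC and -0.43 in STR, and Orm2 0.62 in SN/VTA and -1.03 in HAB. Some of these levels lay around 5.05, the mean level required for testing. Orm2 had means of 5.23 at ZT15 and 4.60 at ZT11 in SN/VTA, and of 4.51 and 5.54 in HAB. Vit had 4.65 at ZT15 and 5.06 at ZT11 in PFC.

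The HAB result rests on its ZT11 arrays. Without HAB ZT11 replicate 1, limma called 52 genes in HAB, 51 higher and 1 lower, and 13 genes for a difference between tissues. Without HAB ZT11 replicate 2 it called 42 in HAB, 39 higher and 3 lower, and 3 for the difference. Each of these fits leaves a lone HAB ZT11 array, which is assumed to vary like the other groups, and a call then sets the HAB ZT15 arrays against that array. The 4 tissues therefore gave 0 calls of a difference with all arrays and up to 13 with 1 array left out.

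The other light transition, ZT03 minus ZT23, spans lights on and shares no array with ZT15 minus ZT11. It gave 60 called genes (0.347%) in the 48-array fit. The lights-off change minus the lights-on change passed for 130 genes (0.753%), 70 higher and 60 lower, and for 129 of them the 2 steps had opposite signs. Opposite signs make the difference larger and so easier to call, and 16 of the 130 were called at lights off and 36 at lights on. Without both HAB ZT11 arrays 128 genes passed, 101 of them shared with the 130. P4ha1 had the smallest p. It changed by 0.26 ± 0.05 at lights off and -0.41 ± 0.05 at lights on, a difference of 0.67 ± 0.08 (adjusted p = 7.18e-07, limma). Creld2 changed by 0.32 ± 0.05 at lights off and -0.22 ± 0.05 at lights on, a difference of 0.53 ± 0.07 (adjusted p = 1.90e-06). Nr1d1 changed by -0.41 ± 0.08 and 0.38 ± 0.08, a difference of -0.79 ± 0.11 (adjusted p = 3.17e-05). Ahsa2, a homologue of an HSP90 activator, had a difference of 0.52 ± 0.07 (adjusted p = 3.17e-05), and Cirbp -0.56 ± 0.08 (adjusted p = 8.43e-05).

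The gene lists are given at both steps side by side. The ER list had a median of 0.19 at lights off and -0.09 at lights on, and 10 of 21 members passed for the difference, all higher, against 0.405% of all genes. Heat shock proteins had a median of 0.12 at lights off and -0.10 at lights on, with 4 of 16 higher. The glucocorticoid list had -0.17 at lights off and -0.05 at lights on, with 0 of 18 passing (limma; at most 0.405% of all genes passed in 1 direction). Among clock repressors Nr1d1, Ciart and Cry1 passed, Ciart with -0.53 ± 0.08 at lights off and 0.08 ± 0.08 at lights on, and Cry1 with 0.12 ± 0.05 and -0.23 ± 0.05. Per1 had -0.22 ± 0.06 at lights off and -0.20 ± 0.06 at lights on, so its 2 steps had the same sign. In the cell type lists Opalin passed at -0.90 ± 0.19 (adjusted p = 0.0103) and Fabp7, an astrocyte fatty acid-binding protein, at -0.34 ± 0.07 (adjusted p = 0.0105).

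**Figure D4:**
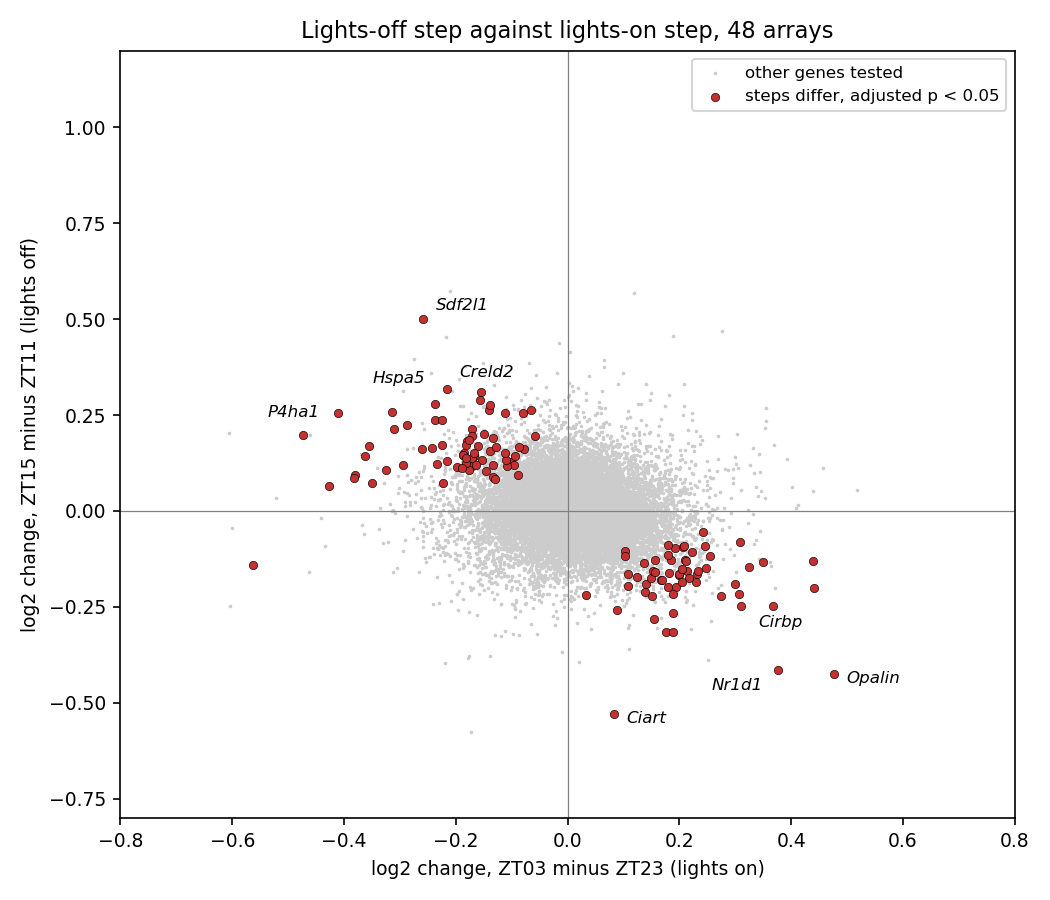
Log2 change at lights off (ZT15 minus ZT11, vertical axis) against the change at lights on (ZT03 minus ZT23, horizontal axis), 1 point per gene over all 48 arrays, with the 130 genes called for the difference in red. P4ha1 and Creld2 lie where lights off is positive and lights on negative, and Nr1d1 and Cirbp lie opposite.

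Over the whole day the called genes did not all reach their highest and lowest levels at the same times. Levels here are relative to the mean of the tissue over 6 times, as mean ± SD of 8 arrays, from ZT03 through ZT07, ZT11, ZT15 and ZT19 to ZT23. Ciart had -0.42 ± 0.16, 0.28 ± 0.19, 0.76 ± 0.09, 0.23 ± 0.12, -0.36 ± 0.22 and -0.50 ± 0.16, so ZT11 was its highest time and ZT15 lay partway down. Nr1d1 had 0.01 ± 0.14, 0.44 ± 0.09, 0.36 ± 0.21, -0.06 ± 0.14, -0.39 ± 0.12 and -0.37 ± 0.19, with its highest levels at ZT07 and ZT11, which lie within their spread of each other. Sdf2l1 had -0.09 ± 0.18, -0.44 ± 0.18, -0.15 ± 0.18, 0.35 ± 0.13, 0.17 ± 0.21 and 0.16 ± 0.13, lowest at ZT07 and highest at ZT15. The spread of its ZT15 level overlapped those of ZT19 and ZT23. Zbtb16 had -0.33 ± 0.26, -0.03 ± 0.15, 0.56 ± 0.30, -0.02 ± 0.16, -0.03 ± 0.18 and -0.15 ± 0.30, so that ZT11 stood above the other 5 times, which overlapped.

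Hspa5 had 0.21 ± 0.12 at ZT15 and its lowest level, -0.37 ± 0.12, at ZT07. Creld2 likewise had 0.20 ± 0.07 at ZT15 and -0.19 ± 0.06 at ZT07. Hif3a had 0.14 ± 0.16 at ZT15, against 0.53 ± 0.21 at ZT11, and between -0.34 and -0.04 at the other times. Klf15 had 0.01 ± 0.14 at ZT15, against 0.33 ± 0.09 at ZT11, and Slc2a1 0.01 ± 0.09 at ZT15, against 0.26 ± 0.11 at ZT11. For the last 2 genes ZT11 was the highest of the 6 times and ZT15 lay near the mean of the day. The same 16-array test gave 6 calls at the step from ZT15 to ZT19 (0.0347%), 0 from ZT19 to ZT23, 4 from ZT23 to ZT03 (0.0232%), 6 from ZT03 to ZT07 (0.0347%) and 28 from ZT07 to ZT11 (0.162%). Neighbouring steps share 8 arrays, so these counts are set side by side and not compared.

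**Figure D5:**
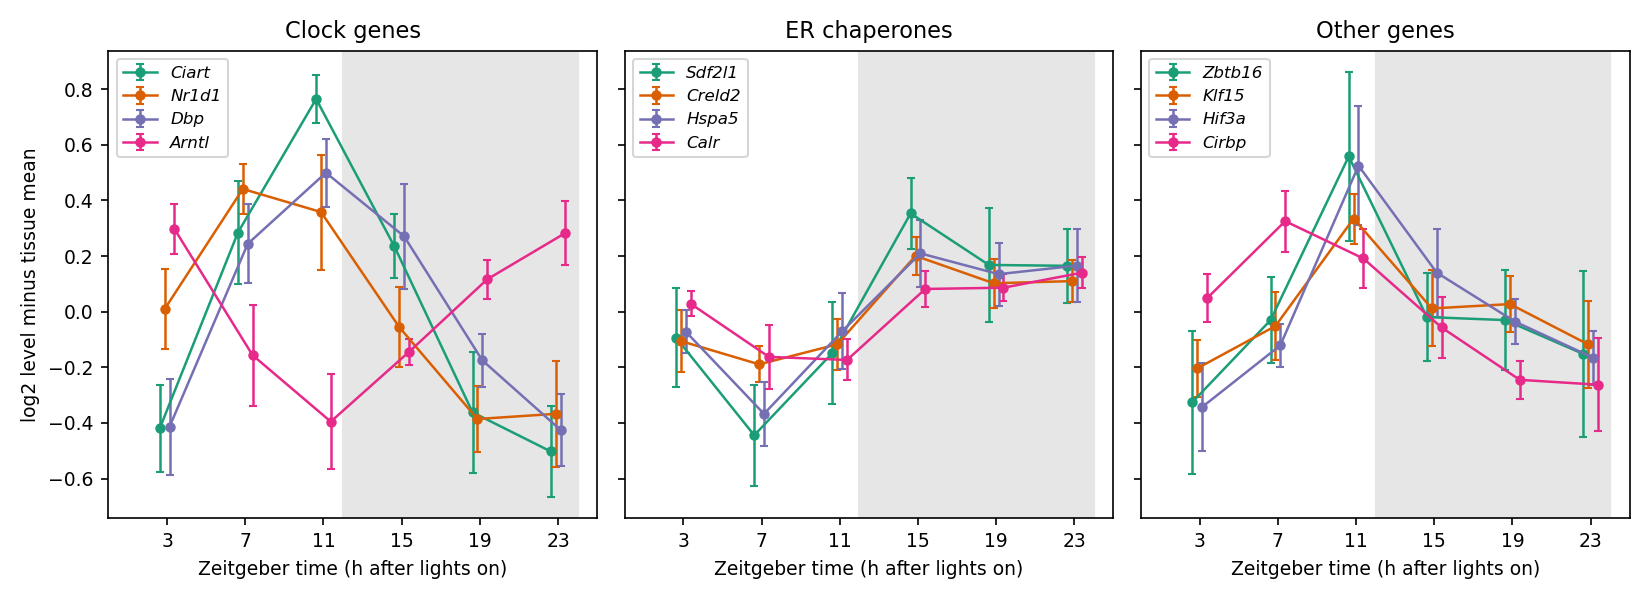
Log2 level relative to the tissue mean at the 6 collection times, as mean and SD of 8 arrays per time, for 4 clock genes, 4 ER chaperone genes and 4 other genes, with the dark phase shaded. Ciart (0.76) and Zbtb16 (0.56) have their highest mean at ZT11, and Sdf2l1 (0.35) and Hspa5 (0.21) at ZT15.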

How the data were processed

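Expression was measured on 48 Affymetrix Mouse Gene 2.0 ST arrays, 16 of which are compared here. Per the labels' protocols, total RNA of 3 mice was pooled per array and converted to biotin-labelled cDNA. The deposited values were taken as log2 levels, since they ran from 1.13 to 13.65. How the scans were background-corrected, summarised and normalized is not stated in the sources used here. Detection calls were not used, so where background sets a floor is unknown, and precision is limited by how many arrays there are. Of 41345 rows, 23521 had 1 gene symbol, 1814 had several and were left out, and 16010 are unnamed here. Each gene was represented by its row of highest mean, and the 17274 of 22180 genes with a mean of at least 5.05, the 30th percentile of rows, were tested.

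Tests used limma 3.58.1 (lmFit, eBayes) in R 4.3.3, with Benjamini-Hochberg adjustment over all genes tested and a threshold of 0.05. The main fit held tissue and time (16 arrays, 11 residual degrees of freedom). Tissue contrasts and their differences came from 8 groups of tissue and time (8 residual degrees of freedom), and the lights-off and lights-on steps from all 48 arrays. A same-cycle change is ZT15 minus ZT11 in 1 tissue and 1 cycle. Motifs were searched in RefSeq promoter windows of 300 bases. Scripts were tested on simulated data.

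Genes were named by rule: up to 12 highest and 12 lowest called changes, all clock genes tested, at most 4 members of each other list by smallest p, the 8 smallest p for a tissue difference, the 3 highest and 3 lowest calls per tissue and the 5 smallest p for the difference of the steps, without predicted genes and short RNAs. Genes, lists and tests were chosen with earlier results of these data known, and genes named outside the rule were picked after seeing their values. Replicate numbers mark the 24-h cycle, per the labels. Same-numbered arrays deviated together with r of -0.04 in SN/VTA, 0.09 in PFC, 0.01 in STR and -0.06 in HAB, and a fit with this block was an alternative. Other alternatives were scaling, filters, row choice, collection blocks and leaving out arrays, cycles or tissues.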

Additional observations from a re-analysis of the deposited data

Results flagged for a closer look

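Among the 8 same-cycle changes of each gene, 1 value lay far from the others in 9 of 94 genes tested, where chance gives about 1 in 20. In HAB of cycle 2 these were Kl at 3.12, Kcne2 at 1.88, Opalin at 0.50 and Bcl2l1 at -0.01, on the log2 scale. Kl and Kcne2 are choroid plexus markers, and the HAB ZT11 array of cycle 2 had a mean choroid plexus level of 6.94 where the other HAB arrays had 8.76 or more. In HAB of cycle 1 it was Foxp2 at 1.03, and in STR of cycle 1 Fosl2 at 0.73. In PFC it was Hspb1 at -0.33 and Pdia3 at 0.75 in cycle 1 and Nr1d1 at -0.76 in cycle 2. The Hspb1 value was the 1 below 0 of the 8, and all 8 of Nr1d1 were below 0.

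The lights-off change differed from the lights-on change by a test of the difference for 5 named genes. The difference was 0.67 for P4ha1, 0.53 for Creld2, -0.79 for Nr1d1, 0.52 for Ahsa2 and -0.56 for Cirbp. All 5 had opposite signs at the 2 steps.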

How the results depend on the processing

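The 6 called genes kept their sign in all 33 alternative settings, and 32 of 126 named genes without a call changed sign in some setting. The count of 6 stayed within 1.5 times under both other scalings, both other filters, the other row choice, the replicate block (5 genes, without Serpinh1) and the collection as a random block (6 genes). It was 27 with all 48 arrays, 20 with trend and robust eBayes and 0 with collection means. It was 1 without the tissue SN/VTA, 2 without PFC, 1 without STR and 1 without HAB. Leaving out cycle 1 or cycle 2 gave 0 (limma, with 1009 and 1350 genes at an unadjusted p under 0.05), and leaving out 1 array gave 1 to 8. Single arrays that lowered it by over 1.5 times were both ZT15 and both ZT11 arrays of SN/VTA (2, 1, 2 and 1 genes), and STR ZT11 replicate 1, STR ZT15 replicate 2 and HAB ZT15 replicate 2 (1 gene each). The STR count of 3 was 0 with median centring, 12 with quantile normalization, 0 without the filter, 0 with the replicate block and 0 to 4 with 1 array left out. With 1 array left out the counts were 0 to 52 in HAB, 0 to 13 for the difference between tissues and 0 in SN/VTA and PFC. The count of 130, 70 higher and 60 lower, was 112 with 24 groups and 122 with the replicate block. With each array centred on its median it was 169, 110 higher and 59 lower. It was 128 without both HAB ZT11 arrays, an alternative chosen after seeing the data. No result reversed, and the cause of these shifts was not tested. The limits are 2 arrays per tissue and time, arrays that may share mice, and log2 values without detection calls.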
